A study of Homo sapiens with 6 samples.

Results

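The miR-181 family was described here across the libraries of a small RNA sequencing study of Withaferin A (WA) in breast cancer cells. Its members were taken as every miRNA of the deposited table whose name begins with hsa-miR-181. They numbered 7 of the 413 miRNAs in the table, of which 4 come from the 5p arm (hsa-miR-181a-5p, hsa-miR-181b-5p, hsa-miR-181c-5p and hsa-miR-181d-5p) and 3 from the 3p arm (hsa-miR-181a-3p, hsa-miR-181a-2-3p and hsa-miR-181c-3p), and the species prefix is left out below. The 3p arms of the miR-181b and miR-181d hairpins were not analysed here.

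The cells were of the established human line MDA-MB-231, a triple-negative breast cancer of mesenchymal-like basal type, and the labels name no genetic change in either group. The WA group (n = 3 libraries) received WA, a steroidal lactone of the plant Withania somnifera, at 2 µM for 24 h. The vehicle group (n = 3) is named here after the study's methods, which give DMSO alone, whereas GEO's labels describe untreated controls. The paper calls the replicates of each group independent, but nothing in the labels says whether the libraries of a group came from separate cultures. Every p-value below therefore measures the spread between these libraries, which may be technical.

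A miRNA hairpin is cut by Drosha and Dicer into a short duplex. One strand, the guide, is kept in an Argonaute protein and pairs through its seed, bases 2 to 8, with sites in messenger RNAs, while the other strand, the passenger, is mostly degraded. In the miR-181 family the 5p strand is the usual guide. The family is best known for its part in lymphocyte development and for repression of anti-apoptotic messages such as BCL2, and it has been described with both growth-promoting and growth-restraining roles in breast cancer.

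The mature sequences are shown because the members differ by few bases, so that the assignment of a read to a member rests on them. They were taken from RefSeq on GRCh38.p14, in which all 7 members had an entry, and are written 5′ to 3′ with the seed in capitals.
miR-181a-5p: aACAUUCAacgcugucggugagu
miR-181b-5p: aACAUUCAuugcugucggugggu
miR-181c-5p: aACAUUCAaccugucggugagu
miR-181d-5p: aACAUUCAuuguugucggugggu
miR-181a-3p: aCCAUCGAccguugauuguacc
miR-181a-2-3p: aCCACUGAccguugacuguacc
miR-181c-3p: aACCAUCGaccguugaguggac

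All 4 of the 5p members carried the seed ACAUUCA, which 5 RefSeq miRNAs of the human genome share. The other one, miR-4262, was not in the table. Counted from 1 at the 5′ end, miR-181b-5p and miR-181d-5p differed by the substitution C12U alone, and miR-181a-5p differed from miR-181b-5p by A9U, C10U and A21G. The sequence of miR-181c-5p equalled that of miR-181a-5p with base 11 deleted, which makes it 22 bases long against 23. No 2 of the 3p members shared a seed. The longest run shared by miR-181a-3p and miR-181c-3p was 15 bases, from base 1 of miR-181a-3p and base 2 of miR-181c-3p. A comparison of miR-181a-2-3p with miR-181a-3p gave the substitutions C5U, U6C and C16U, the first 2 of which fall in the seed. The rule by which reads common to such similar sequences were assigned is not given in the sources used here.

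By the GENCODE release 44 annotation of GRCh38, the members came from 3 pairs of neighbouring hairpins. MIR181A1 and MIR181B1 lie 61 bases apart on the minus strand of chromosome 1, within introns of the noncoding host gene MIR181A1HG. There miR-181a-5p occupies chr1:198859108-198859130, miR-181a-3p chr1:198859069-198859090 and miR-181b-5p chr1:198858925-198858947. MIR181A2 and MIR181B2 lie 1158 bases apart on the plus strand of chromosome 9, within introns of the noncoding MIR181A2HG and opposite to introns of the protein-coding gene NR6A1. There miR-181a-5p occupies chr9:124692480-124692502, miR-181a-2-3p chr9:124692518-124692539 and miR-181b-5p chr9:124693725-124693747. Reads of miR-181a-5p and of miR-181b-5p therefore cannot be divided between chromosomes 1 and 9, whereas the 3p sequences of miR-181a differ between the hairpins. MIR181C and MIR181D lie 66 bases apart on the plus strand of chromosome 19, within introns of NANOS3, a gene of germ cell development. There miR-181c-5p occupies chr19:13874725-13874746, miR-181c-3p chr19:13874763-13874784 and miR-181d-5p chr19:13874910-13874932.

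The deposited value of a miRNA, called the normalized value, is its reads scaled by 1 size factor per library. All values of a library were whole multiples of the same step, and 1 step was taken as 1 read. On this count the libraries held between 710878 and 4778066 reads under vehicle and between 156442 and 2232934 under WA. These totals, on which CPM and percentages of miRNA reads rest, cover only the 413 miRNAs of the table. The paper describes these miRNAs as the ones expressed in both groups. A count of 0 allows up to 3 reads, a limit that ranged from 0.628 in vehicle replicate 2 to 19.2 in WA replicate 1 in CPM, which scales the reads of every library to the same total, and covers counting error only. WA replicate 3 lay apart from the other WA libraries. Across the 413 miRNAs its log2 values correlated with theirs at Pearson's r of 0.630 and 0.641, against 0.772 to 0.797 with the vehicle libraries, while WA replicates 1 and 2 correlated with each other at 0.964. The vehicle group was split too. Vehicle replicate 1 correlated with vehicle replicates 2 and 3 at 0.785 and 0.792, while those correlated with each other at 0.987. Of the 6 miRNAs listed for mesenchymal-like breast cancer cells all were in the table, with a summed level of 272918 to 435272 CPM across the libraries. Whether miR-31-5p, also among them, belongs on a list for this line was not tested. Its level was low in the vehicle group. There its normalized values were 33.9, 5.43 and 8.86, in the order of the replicate numbers. In the WA group miR-31-5p stood at 2777, 3005 and 23.3. It set WA replicates 1 and 2 apart. Other members of the list set WA replicate 3 apart instead, with miR-21-5p at 27029 against 134806 to 403216 in the other 5 libraries, miR-125b-5p at 146399 against 7569 to 23109 and miR-221-3p at 169488 against 10869 to 62289. Of the 6 epithelial miRNAs, 4 were in the table, and they summed to 1891, 140 and 183 CPM in vehicle libraries and to 0, 0 and 739 CPM in WA libraries. The blood-cell list, relevant because blood cells express miR-181 strongly, had 1 of 6 members in the table, miR-486-5p, at 909, 360 and 711 CPM in vehicle libraries and at 0, 5.31 and 729 CPM in WA libraries. The liver miRNA miR-122-5p did not pass 11.3 CPM in any library, and none of the 3 muscle miRNAs was in the table. The part of these differences in the results below was not tested.

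The family total did not separate the groups. Summed over the 7 members it was 27633, 6995 and 5318 CPM in vehicle replicates 1 to 3 and 3292, 3395 and 10276 CPM in WA replicates 1 to 3. These sums came to 2.76%, 0.699% and 0.532% of the miRNA reads in vehicle libraries and to 0.329%, 0.340% and 1.03% in WA libraries. Vehicle replicate 1 held the most and WA replicates 1 and 2 the least, but WA replicate 3 lay above 2 of the vehicle libraries. On the log2 CPM scale the means were 13.30 ± 1.27 (SD, n = 3) and 12.25 ± 0.94 (SD, n = 3), a difference of -1.05 with a p of 0.3 in a two-sided exact permutation test. With 3 libraries against 3 this test cannot go below a p of 0.1, so no share or ratio below could pass 0.05. Without vehicle replicate 1 the difference was -0.33, and without WA replicate 3 it was -1.59. In bulk RNA a lower level per cell and fewer cells with that level cannot be told apart.

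Within the family, miR-181a-5p and miR-181b-5p held most of the reads of every library. The share of miR-181a-5p was 75.0%, 55.4% and 50.1% of the miR-181 reads in vehicle replicates 1 to 3 and 49.1%, 48.4% and 56.4% in WA replicates 1 to 3. That of miR-181b-5p was 23.2%, 35.8% and 39.1% in vehicle libraries and 43.7%, 42.4% and 24.7% in WA libraries. The libraries with the highest share of miR-181a-5p, vehicle replicate 1 and WA replicate 3, had the lowest shares of miR-181b-5p. Group means of 60.2 ± 13.1% and 51.3 ± 4.41% (SD, n = 3) for miR-181a-5p gave a two-sided exact permutation p of 0.4, and means of 32.7 ± 8.36% and 36.9 ± 10.6% for miR-181b-5p gave 0.5. The ratio of miR-181a-5p to miR-181b-5p reads was above 1 in 6 of 6 libraries. It was 3.23, 1.55 and 1.28 in vehicle libraries and 1.12, 1.14 and 2.28 in WA libraries, with overlapping groups and an exact permutation p of 0.5.

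**Figure D1:**
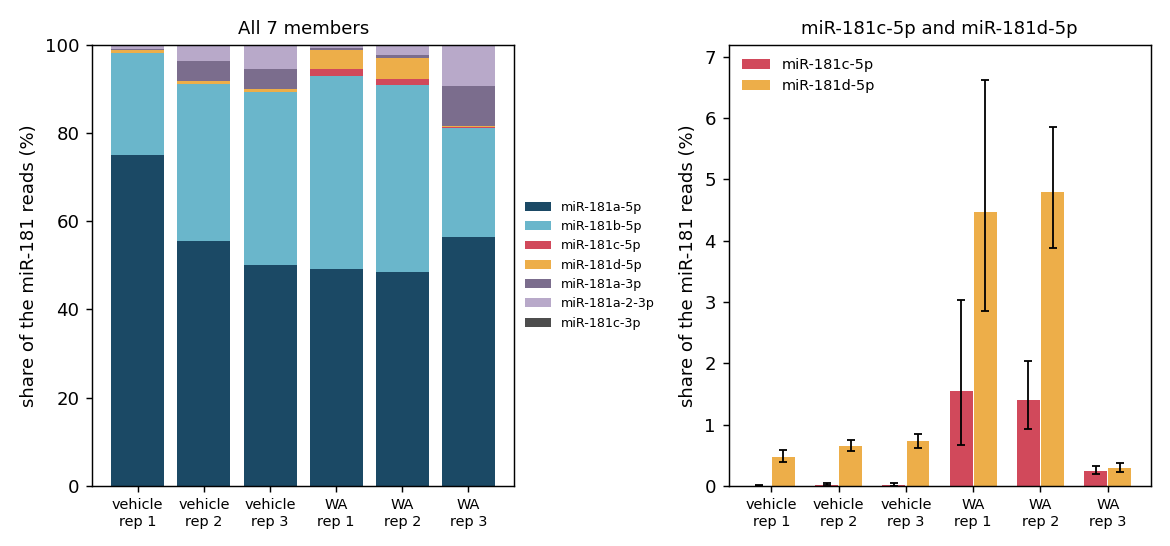
Shares of the miR-181 reads held by each member, in percent, for vehicle replicates 1 to 3 and WA replicates 1 to 3. Stacked bars at left give all 7 members and bars at right give miR-181c-5p and miR-181d-5p with exact 95% binomial intervals, where miR-181c-5p reached 1.55% and 1.41% in WA replicates 1 and 2, 0.248% in WA replicate 3 and at most 0.0180% in a vehicle library.

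The order of the members changed most at its lower end. In all 3 vehicle libraries miR-181c-5p was the least read member, with 0, 6 and 3 reads, below its own 3p strand at 11, 50 and 38 reads. In all 3 WA libraries it was read more often than miR-181c-3p, with 8, 27 and 57 reads against 2, 0 and 43. miR-181d-5p followed miR-181a-5p and miR-181b-5p in WA replicates 1 and 2, with 23 and 92 reads, but in WA replicate 3, with 66, it also came after both 3p strands of miR-181a. The strands miR-181a-3p and miR-181a-2-3p changed places between vehicle libraries, at 78 and 172 reads in replicate 1, 1514 and 1173 in replicate 2 and 1000 and 1214 in replicate 3, so their order there is not fixed. The rank among the 413 miRNAs was 17 to 57 for miR-181a-5p and 30 to 62 for miR-181b-5p across the 6 libraries, while miR-181c-5p ranked from 193 to 213 in WA libraries.

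Of the chromosome 19 pair, miR-181c-5p was higher in WA-treated cells. Its normalized value was 0, 1.71 and 0.917 in vehicle replicates 1 to 3 and 46.4, 48.2 and 42.8 in WA replicates 1 to 3. The 3 WA libraries lay close together, WA replicate 3 included, and no vehicle library came near them. In CPM the WA libraries stood at 51.1 (exact 95% Poisson interval 22.1 to 101), 47.8 (31.5 to 69.5) and 25.5 (19.3 to 33.1), against 0, 1.26 and 0.715 in vehicle libraries. The 0 in vehicle replicate 1 allows up to 4.22 CPM. Summed over libraries this was 92 WA reads against 9 vehicle reads, a CPM ratio of 33.5 with a counting interval of 16.9 to 75.6 that leaves out the spread between libraries. At the depth of the smallest library, WA replicate 1, the levels of vehicle replicates 2 and 3 would give 0.196 and 0.112 reads, and those of WA replicates 2 and 3 would give 7.48 and 3.99.

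Across the 327 miRNAs whose normalized value reached 10 in 3 or more libraries, all 7 members among them, the groups were compared by limma on log2(normalized value + 1) with Benjamini-Hochberg adjustment over the 327. At an adjusted p under 0.05 it called 18, or 5.5%, of which 1 was higher in WA-treated cells, or 0.306%, and 17 were lower, or 5.2%. The higher miRNA was miR-181c-5p, with a log2 fold change of 4.75 (SE 0.887, 95% interval 2.68 to 6.82) and a limma adjusted p of 0.0300. It reached the filter only in the group where it was high. Without any filter, over all 413 miRNAs, the limma adjusted p was 0.0255 and the fold change 4.75. On this scale the fold change of a miRNA with such low values is understated. Among the members 1 of 7 had groups that did not overlap, against 27.2% of all miRNAs tested, 7.65% higher and 19.6% lower in WA-treated cells. The call was lost without any of 5 of the 6 libraries. The limma adjusted p was 0.0527, 0.143 and 0.220 without vehicle replicates 1, 2 and 3 and 0.175 and 0.155 without WA replicates 1 and 2, while without WA replicate 3 it was 0.00202, and over these fits the log2 fold change ran from 4.36 to 5.08. With all libraries thinned to 156442 reads it was 4.65 with a limma adjusted p of 0.0903, with a pseudocount of 0.1 in place of 1 it was 6.33 with 0.0941, and with one of 10 it was 2.36 with 0.0419.

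**Figure D2:**
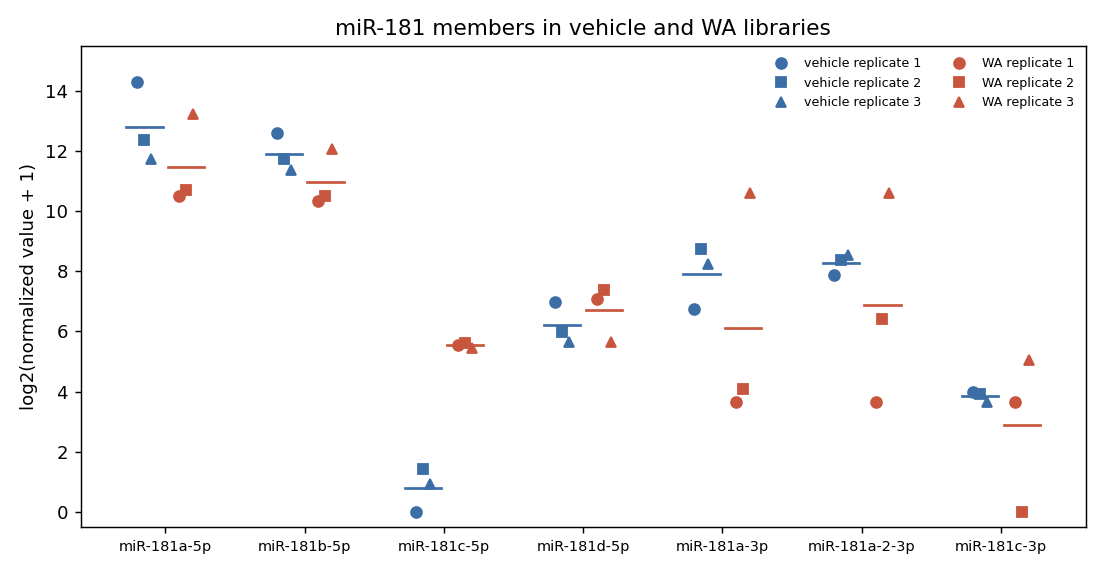
Level of each miR-181 member as log2(normalized value + 1) in every library, with vehicle libraries in blue, WA libraries in red, a marker shape per replicate number and a bar at the mean of each group. The groups stand apart for miR-181c-5p, at normalized values of 0 to 1.71 against 42.8 to 48.2, and overlap for the other 6 members.

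The other member of the same locus, miR-181d-5p, stood at normalized values of 126, 62.0 and 49.5 in vehicle libraries and 133, 164 and 49.6 in WA libraries. WA replicates 1 and 2 were the highest and WA replicate 3 lay among the vehicle libraries. The limma log2 fold change was 0.49 (SE 1.06, 95% interval -1.99 to 2.97) with an adjusted p of 0.764. Its share of the miR-181 reads was 0.473%, 0.649% and 0.726% in vehicle libraries and 4.47%, 4.80% and 0.288% in WA libraries, so WA replicate 3 had the lowest share of all 6 and the other WA libraries the highest, with an exact permutation p of 0.4. The number of miR-181d-5p reads per 100 reads of miR-181b-5p, from which it differs at base 12 alone, was nearly fixed in vehicle libraries at 2.04, 1.82 and 1.86. It was 10.2 and 11.3 in WA replicates 1 and 2 but 1.16 in WA replicate 3, and the groups overlapped with an exact permutation p of 0.4 for the log2 ratio.

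The share of miR-181c-5p was 0%, 0.0180% and 0.0134% of the miR-181 reads in vehicle libraries and 1.55% (exact 95% interval 0.673 to 3.04), 1.41% (0.930 to 2.04) and 0.248% (0.188 to 0.322) in WA libraries. WA replicate 3, in which miR-181a-5p and miR-181b-5p were more abundant than in the other WA libraries, had the lowest share of the WA libraries but still exceeded every vehicle library, whose intervals end at 0.0188%, 0.0391% and 0.0393%. The means of 0.0105 ± 0.00934% and 1.07 ± 0.715% (SD, n = 3) gave a two-sided exact permutation p of 0.1, the smallest this test allows. With each library thinned to the 515 miR-181 reads of WA replicate 1, the reads of miR-181c-5p were 0, 0 and 0 in vehicle libraries and 8, 6 and 2 in WA libraries. Of the reads with the shared seed, miR-181c-5p and miR-181d-5p together made up 0.480%, 0.727% and 0.822% in vehicle libraries and 6.09%, 6.39% and 0.657% in WA libraries. These groups overlapped, with an exact permutation p of 0.3, and in every library over 90% of the reads with this seed came from miR-181a-5p and miR-181b-5p.

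Ratios within a library do not depend on how libraries are scaled to each other. Reads of miR-181c-5p per read of miR-181d-5p, its neighbour, numbered 0.0276 and 0.0185 in vehicle replicates 2 and 3, and 0 against 93 reads in vehicle replicate 1. In WA libraries the ratio was 0.348, 0.293 and 0.864. The groups did not overlap, and with 0.5 reads added to each count the mean log2 ratio was -6.05 ± 1.32 (SD, n = 3) in vehicle and -1.14 ± 0.82 in WA libraries, a difference of 4.91 (exact permutation p = 0.1). Set against miR-181a-5p, which has 1 base more, miR-181c-5p had 0.0324 and 0.0268 reads per 100 in vehicle replicates 2 and 3 and 3.16, 2.91 and 0.440 per 100 in WA libraries. That log2 ratio was higher in WA libraries by 6.72, again without overlap and with an exact permutation p of 0.1. The ratios of miR-181a-5p to miR-181b-5p, of miR-181d-5p to miR-181b-5p and of miR-181a-2-3p to miR-181a-3p had overlapping groups.

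**Figure D3:**
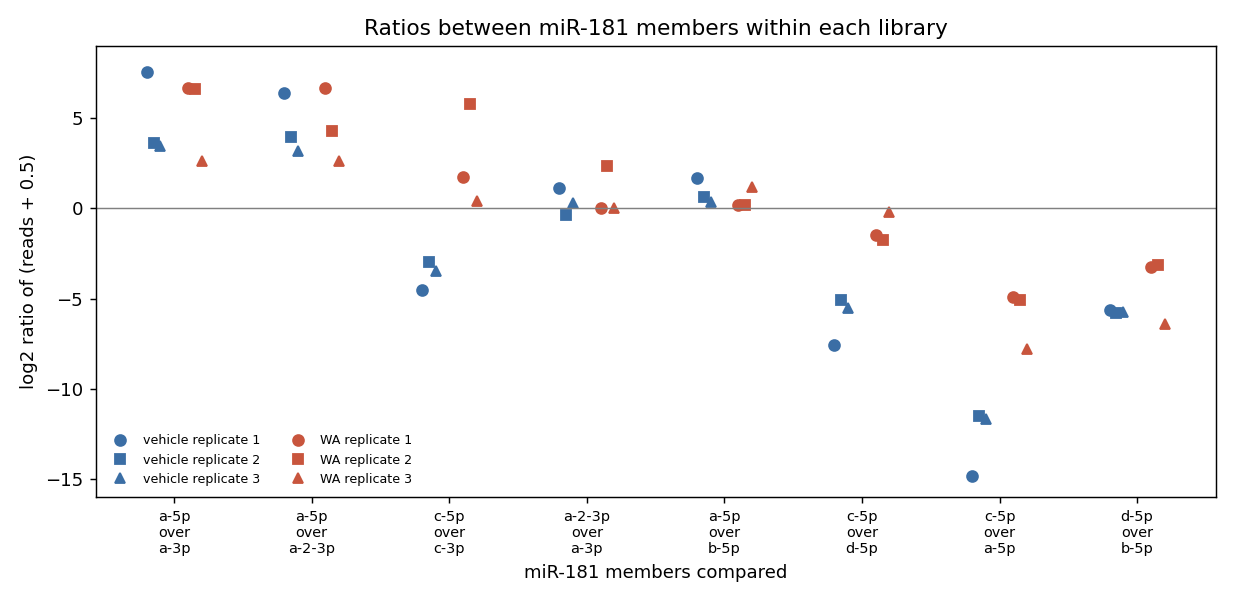
Log2 ratio of (reads + 0.5) between pairs of miR-181 members in each library, with vehicle libraries in blue, WA libraries in red, a marker shape per replicate number and a line at equal reads. The 3 ratios with miR-181c-5p in the numerator stand apart between groups, with differences of 6.30 over miR-181c-3p, 4.91 over miR-181d-5p and 6.72 over miR-181a-5p, and the other 5 overlap.

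For the hairpin of miR-181c the arm ratio was higher in WA libraries. The passenger strand miR-181c-3p was the more frequent arm in vehicle libraries, with 0 5p reads to 11 3p reads in replicate 1 and ratios of 0.12 and 0.0789 in replicates 2 and 3. In WA libraries the 5p arm had more reads, with ratios of 4 and 1.33 in replicates 1 and 3 and 27 reads to 0 in replicate 2. The exact 95% Poisson intervals in CPM overlapped between arms in replicates 1 and 3. They were 22.1 to 101 against 1.55 to 46.2 in replicate 1, and 19.3 to 33.1 against 13.9 to 25.9 in replicate 3. The mean log2 ratio was -3.65 ± 0.80 (SD, n = 3) in vehicle and 2.65 ± 2.80 in WA libraries, a difference of 6.30 without overlap and with an exact permutation p of 0.1. Leaving out each library gave differences of 4.73 to 7.42. Since an arm had 0 reads in vehicle replicate 1 and in WA replicate 2, the size depends on the reads added, and it was 5.51 with 1 read in place of 0.5. The 3p strand itself had normalized values of 14.9, 14.3 and 11.6 in vehicle libraries and 11.6, 0 and 32.3 in WA libraries, and its limma log2 fold change was -0.96 (SE 1.41, 95% interval -4.24 to 2.33) with an adjusted p of 0.643. The 0 in WA replicate 2 allows a normalized value of up to 5.36, and the value in WA replicate 1 rests on 2 reads. WA replicate 3 alone was above the vehicle libraries.

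For the miR-181a hairpins the arm ratio did not separate the groups. Reads of miR-181a-5p per read of its 3p strands, miR-181a-3p and miR-181a-2-3p summed, numbered 58.9, 6.89 and 5.05 in vehicle libraries and 63.2, 16.6 and 3.10 in WA libraries. The guide strand exceeded the passenger strands in every library. In WA replicate 3 both 3p strands were listed at 2084 reads, and set against either alone the ratio there was 6.21. Whether reads common to both strands were counted for each was not tested, and the sums over the 3p arms rest on them as listed. The mean log2 ratio was 3.67 ± 1.93 (SD, n = 3) in vehicle and 3.83 ± 2.10 in WA libraries, a difference of 0.16 with an exact permutation p of 1. The spread within each group was thus far wider than the difference between them. The 3 members of the 3p arm together held 1.33%, 8.19% and 10.1% of the miR-181 reads in vehicle libraries and 1.17%, 2.92% and 18.4% in WA libraries (exact permutation p = 0.9).

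The miR-181a 3p strands, whose sequences differ between the chromosome 1 and chromosome 9 hairpins, had the largest limma standard errors of the members. The strand from chromosome 1, miR-181a-3p, had normalized values of 106, 432 and 306 in vehicle libraries and 11.6, 16.1 and 1566 in WA libraries. Its counterpart from chromosome 9, miR-181a-2-3p, had 233, 335 and 371 in vehicle libraries and 11.6, 84.0 and 1566 in WA libraries. WA replicates 1 and 2 lay below every vehicle library for both strands and WA replicate 3 above all of them. With all 6 libraries the limma log2 fold changes were -1.80 (SE 1.91, adjusted p = 0.558) for miR-181a-3p and -1.37 (SE 1.68, adjusted p = 0.606) for miR-181a-2-3p. Without WA replicate 3 they were -4.04 with a limma adjusted p of 0.0109 and -3.24 with 0.0355, in a fit that called 45% of all miRNAs tested, with 35.2% called lower. The ratio of the chromosome 9 to the chromosome 1 strand was 2.21, 0.775 and 1.21 in vehicle libraries and 1, 5.22 and 1 in WA libraries (exact permutation p = 0.7), and the ratios of 1 come from equal numbers, 2 reads of each strand in WA replicate 1 and 2084 of each in WA replicate 3.

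For both abundant guide strands the limma interval included 0. The normalized values of miR-181a-5p were 19947, 5287 and 3418 in vehicle libraries and 1467, 1660 and 9722 in WA libraries, with a limma log2 fold change of -1.31 (95% interval -3.68 to 1.06) and an adjusted p of 0.436. For miR-181b-5p the values were 6180, 3413 and 2665 in vehicle libraries and 1304, 1454 and 4261 in WA libraries, with a log2 fold change of -0.93 (95% interval -2.63 to 0.76) and a limma adjusted p of 0.436. In both cases WA replicates 1 and 2 were below every vehicle library and WA replicate 3 was above 2 of them. Without WA replicate 3 the fold changes were -2.19 and -1.48, with limma adjusted p of 0.0831 and 0.0669. The median log2 fold change of the 7 members was -0.96, against -0.91 over all miRNAs tested, and 2 of 7 members against 129 of 327 miRNAs had a fold change above 0.

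**Figure D4:**
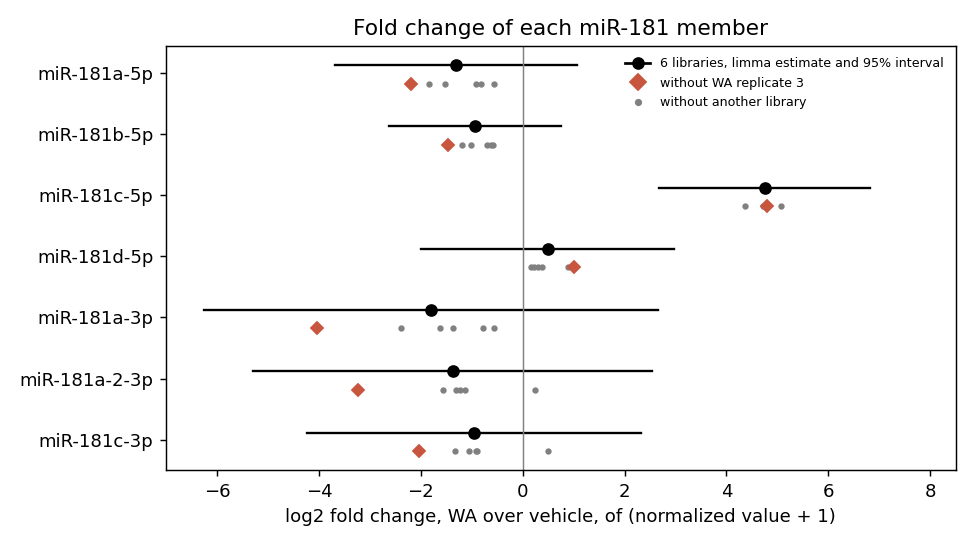
Limma log2 fold change of (normalized value + 1), WA over vehicle, for each miR-181 member, with its 95% interval from 6 libraries in black, the estimate without WA replicate 3 as a red diamond and those without each other library as grey dots. The interval excludes 0 for miR-181c-5p, at 2.68 to 6.82, and includes 0 for the other 6, of which miR-181a-3p moved the furthest without WA replicate 3, to -4.04.

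The miRNAs whose pattern over the 6 libraries came closest to that of miR-181c-5p were miR-15a-5p, miR-152-3p and miR-628-3p. Likeness was measured as the root mean square difference of log2(normalized value + 1), each miRNA centred on its own mean, and was 0.672, 1.02 and 1.04. miR-15a-5p, which also represses BCL2, stood at 14.9, 22.0 and 21.7 in vehicle libraries and 186, 270 and 292 in WA libraries, with a limma log2 fold change of 3.60 and an adjusted p of 0.0837. miR-152-3p, known to target the methyltransferase DNMT1, had values of 98.9, 72.0 and 59.6 against 1270, 1522 and 385, with a log2 fold change of 3.57 and a limma adjusted p of 0.0601. For miR-628-3p the values were 4.06, 2.86 and 8.56 against 104, 46.5 and 36.1, with a log2 fold change of 3.32 and a limma adjusted p of 0.122. Like miR-181c-5p, it reached the filter only in the WA group. These miRNAs were chosen for likeness to miR-181c-5p over the same 6 libraries. Their fold changes follow from that choice and are no separate result. For miR-181a-5p the closest were miR-503-5p at 0.404, miR-30c-5p at 0.465 and its cluster partner miR-181b-5p at 0.560.

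Other miRNAs known to target BCL2 were taken as a list of 13, of which 10 were in the table and 9 were tested. Limma called none of the 9 after adjustment, against 5.5% of all miRNAs tested. Before adjustment 2 of them had a p under 0.05, against 26.3% of all miRNAs tested. Of those tested, 8 of 9 had a log2 fold change above 0, against 129 of 327 miRNAs. The groups did not overlap, with WA higher, for 4 of 9, against 7.65% of all miRNAs tested. These were miR-15a-5p, miR-16-5p, miR-195-5p and miR-34a-5p. The list was chosen with earlier results of these data known. The paper names miR-15a-5p and miR-34a-5p among its top up-expressed miRNAs from these libraries. Values of the list are therefore no separate support. The median log2 fold change of the 9 was 2.22, against -0.91 over all miRNAs tested. miR-365a-3p and miR-365b-3p carry the same values in the table and count as 2 of the 9. Of the others, miR-15a-5p, miR-15b-5p, miR-16-5p, miR-195-5p and miR-497-5p belong to 1 family. Among those without overlap, miR-15a-5p, miR-16-5p and miR-195-5p are of that family. The 9 are therefore not separate results. Another miRNA cluster of this stretch of chromosome 19, that of miR-23a, miR-27a and miR-24-2, lies 38039 bases from MIR181C on the opposite strand in exons of MIR23AHG. All 6 of its members were tested and none was called by limma, against 5.5% of all miRNAs tested. Before adjustment 1 of the 6 had a limma p under 0.05, against 26.3%. Of the 6, 5 had a fold change above 0, against 129 of 327 miRNAs, and 1 was higher in WA-treated cells without overlap, against 7.65%. The median log2 fold change was 1.15, against -0.91 over all miRNAs tested. The 6 are arms of hairpins of 1 cluster, so they are not separate results.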

How the data were processed

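Small RNA was sequenced from 3 vehicle and 3 WA libraries of MDA-MB-231 cells, and all 6 were used. Per the paper's methods and the submitters' processing notes, the authors trimmed reads with Trim Galore, aligned them with Bowtie to GRCh38.p10, removed other noncoding RNAs, matched the remainder to mature human miRNAs and tested them with DESeq2. The deposited signal is a count of reads that the authors scaled by 1 size factor per library. Deposited alongside were the authors' own comparisons (a fold ratio, its log2 value, p-values and adjusted p-values), which were not used. No per-sample column was left unused.

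Every value was a whole multiple of its library's step, within 0.001 steps. Because few values lie at 1 step, the steps were not used in a count model, and reads, CPM and shares assume that 1 step is 1 read. The comparison used limma 3.58.1 in R 4.3.3 with a variance trend, unpaired and two-sided, on log2(normalized value + 1), fitted over the 327 of 413 miRNAs whose value reached 10 in 3 or more libraries. Family totals, shares and log2 ratios (with 0.5 reads added) were compared by two-sided exact permutation tests. Intervals at 95% are exact Poisson for CPM, exact binomial for shares and the summed CPM ratio, and limma's for fold changes. The fit was tested on simulated data. Python 3.11.15, numpy 2.4.6, pandas 2.3.3, scipy 1.17.1 and matplotlib 3.10.9 did the rest. Sequences came from RefSeq, which matched 368 of the 413 names, and annotation from GENCODE release 44.

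Named are all miR-181 members, the 3 miRNAs most like miR-181c-5p and miR-181a-5p, and the lists of BCL2-targeting, neighbouring and cell type marker miRNAs. The members and lists were chosen with earlier results of these data known. Some ratios and shares were added after their values were seen: miR-181c-5p to miR-181a-5p, miR-181d-5p to miR-181b-5p, and the shares of the 3p arms and within the 5p reads. Alternatives were other scalings, filters and pseudocounts, no variance trend, thinning, the replicate number as a block and each library left out.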

Additional observations from a re-analysis of the deposited data

How the results depend on the processing

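The direction of miR-181c-5p held in all alternatives run, with log2 fold changes of 6.33 at a pseudocount of 0.1, 2.36 at one of 10, 4.65 after thinning and 4.36 to 5.08 with each library left out, at limma adjusted p from 0.00202 to 0.220 over all alternatives. It was not tested under a value of at least 10 in every library. The limma count at an adjusted p under 0.05 was 53 with no filter, 7 with a pseudocount of 0.1 and 7 with one of 10. It was 0 of 173 with a value of 10 in every library, where 29 had an unadjusted p under 0.05, and 0 to 147 with each library left out. The counts of 0 came without vehicle replicates 2 and 3 and WA replicates 1 and 2, with 52, 46, 47 and 50 miRNAs at an unadjusted p under 0.05, and the 147 without WA replicate 3. The cause was not tested. Upper-quartile scaling moved the median log2 fold change of all miRNAs from -0.91 to -0.66 and reversed no member.

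Same-numbered libraries correlated at -0.0692, 0.0571 and -0.0874 in their deviations from the group means. Differently numbered libraries ran from -0.0683 to 0.0844, as close to 0, so these values cannot decide whether the numbers pair libraries. In log2 values over all miRNAs, each vehicle library correlated best with WA replicate 3 among the WA libraries. Those correlations were 0.772, 0.797 and 0.774 for vehicle replicates 1 to 3. With the replicate block miR-181c-5p had a log2 fold change of 4.75 with a limma adjusted p of 0.0616, and the number of calls was 24 in place of 18.

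With each library left out, differences turned sign as follows. The log2 fold change ran from -3.24 to 0.24 for miR-181a-2-3p and from -2.03 to 0.50 for miR-181c-3p. Differences of shares, in percentage points, ran from -0.463 to 10.4 for miR-181b-5p, -2.71 to 1.64 for miR-181a-3p, -1.86 to 2.49 for miR-181a-2-3p, -0.0316 to 0.163 for miR-181c-3p and -4.49 to 4.10 for the 3p arms. Log2 ratio differences ran from -0.83 to 1.27 for miR-181a-5p over its 3p strands, -0.28 to 1.76 over miR-181a-3p, -1.07 to 0.94 over miR-181a-2-3p, -0.35 to 0.82 for miR-181a-2-3p over miR-181a-3p and -0.71 to 0.021 for miR-181a-5p over miR-181b-5p. The share difference of miR-181c-3p was 0 after thinning, and miR-181a-5p over miR-181a-2-3p was 0.066 on normalized values + 1. None of these had passed its test. The ratios of miR-181c-5p to miR-181c-3p, miR-181d-5p and miR-181a-5p kept their direction at 4.73 to 7.42, 4.16 to 5.40 and 5.63 to 7.67. With 1 read added they were 5.51, 4.50 and 6.33, and on normalized values + 1 they were 5.71, 4.26 and 6.06. Depth limits the rarer members, with 8 reads of miR-181c-5p and 2 of each 3p strand in WA replicate 1. The count tests with edgeR and with DESeq2 named among the alternatives were not run, since few values lie at 1 step and the steps were not used in a count model.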

Other observations

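In WA replicate 3 miR-181a-3p and miR-181a-2-3p had the same number of reads, 2084, and they also shared their number in WA replicate 1, at 2 reads. Of the 85 miRNAs with over 1000 reads in WA replicate 3, these were the only 2 that shared a number with another. Among miRNAs of over 1000 reads, 2 others shared a number in each of vehicle replicates 2 and 3 and WA replicate 2, and 0 in vehicle replicate 1 and WA replicate 1. In the other 4 libraries the strands differed, at 78 and 172, 1514 and 1173, 1000 and 1214, and 9 and 47 reads. Whether reads common to both strands were counted for each was not tested.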
